A study of Mus musculus with 24 samples.

Results

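Inguinal fat and epididymal fat of mice on chow were compared in the control arm of a study of the hormone irisin. Inguinal fat (iWAT) is the white fat pad under the skin of the groin. Epididymal fat (eWAT) is the white fat pad of the abdomen that lies along the epididymis. The comparison used 6 of the 24 libraries of the series: 3 libraries of iWAT and 3 of eWAT, chosen by their labels. All 6 came from C57BL6 mice that had received an adeno-associated virus (AAV) coding for green fluorescent protein (AAV-GFP) and had eaten normal chow for 18 weeks. Both groups thus carried the control virus, and neither was an untreated group. The other 18 libraries came from mice given AAV-irisin or a high-fat diet. The labels give neither sex nor age, do not name the promoter of the vector, and leave unsaid if each library had its own mouse. The p-values therefore measure only the spread between these libraries. Epididymal fat is found in males.

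The depots arise from different embryonic sources and keep position-dependent transcription factors of the Hox and T-box families in their stromal and fat cells. Visceral pads such as eWAT are covered by mesothelium, a sheet of epithelium-like cells that lines the abdominal cavity and expresses keratins, mesothelin and uroplakins. Subcutaneous pads have no such lining. Mouse inguinal fat is also known for beige fat cells, which can switch on genes of heat production.

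Levels are the deposited FPKM values, in which the reads of a gene are divided by its length and by the library's scale. The 6 libraries held 14.2 M to 18.0 M reads in genes (median 16.5 M). An FPKM of 1 in a gene of 2000 bases stood for 27.7 to 36.4 reads. Genes at 0.5 FPKM or more in at least 3 of the 6 libraries were tested, which left 14928 of the 54532 genes of the table. Differences are iWAT minus eWAT on the scale log2(FPKM + 0.5), given with their standard error (SE), which understates the change of low genes. Genes with a limma adjusted p under 0.05 were called. Where a gene was listed at 0 in every library of one depot, its fitted difference depends on the added 0.5 and is no bound.

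The depot labels matched the marker genes. Tbx15, a T-box transcription factor of subcutaneous fat (chromosome 3, positions 99240381 to 99354259), was at 9.64, 10.7 and 6.07 FPKM in iWAT and at 0.0880, 0.0192 and 0.0160 in eWAT. Wt1, a transcription factor of mesothelium (chromosome 2, positions 105126529 to 105173616), was listed at 0 in all 3 iWAT libraries and at 10.1, 5.82 and 10.4 FPKM in eWAT. Some libraries stood apart in other cell types. In eWAT library 1 the summed level of 14 B cell markers was 205 FPKM, against 31.5 and 52.2 in the other eWAT libraries and 18.8 to 25.8 in iWAT. There T and NK cell markers summed to 57.7 FPKM, against 12.9 and 17.6 in the other eWAT libraries and 14.8 to 30.1 in iWAT. Lymph node stroma genes summed to 183 FPKM in eWAT library 1, against 26.5 and 29.1 in the other eWAT libraries. In iWAT libraries 1, 2 and 3 they summed to 25.9, 32.4 and 3.31 FPKM. In iWAT library 3 the summed level of 26 resident macrophage markers was 385 FPKM, against 2749 and 2592 in the other iWAT libraries and 1653 to 2283 in eWAT. The same library had the highest summed level of 31 thermogenic genes, 447 FPKM against 252 and 212. List counts that moved by over 1.5 times without these libraries are given below with and without them. In RNA from whole tissue, fewer cells of a type and less RNA per cell cannot be told apart.

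The depots differed in 379 of the 14928 genes (2.54%). Of these, 94 were higher in iWAT (0.63% of the genes tested) and 285 were lower (1.91%). In all 379 the 3 iWAT libraries lay apart from the 3 eWAT libraries, as they did in 2897 (19.4%) of all genes tested. The called genes had a median absolute difference of 1.82 log2 units, and the median difference over all genes was 0.02. A difference of at least 2 log2 units was found in 38 of the genes higher in iWAT and in 117 of the lower ones. Among the called genes 20 were listed at 0 in every iWAT library and 12 in every eWAT library. Protein-coding genes made up 340 of the 379, or 2.75% of the protein-coding genes tested. Since the depots lay apart in all 379, leaving out 1 library could not change the direction of any of them. Whichever of the 6 libraries was left out, 137 of the 379 (26 higher, 111 lower) were called each time. With 1 library fewer, 164 genes were called without iWAT library 1, 187 without iWAT library 2, 192 without eWAT library 2 and 183 without eWAT library 3, while 193 genes were higher in iWAT without iWAT library 3. Without both iWAT library 3 and eWAT library 1, 817 genes were called, 404 of them higher in iWAT and 413 lower.

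**Figure D1:**
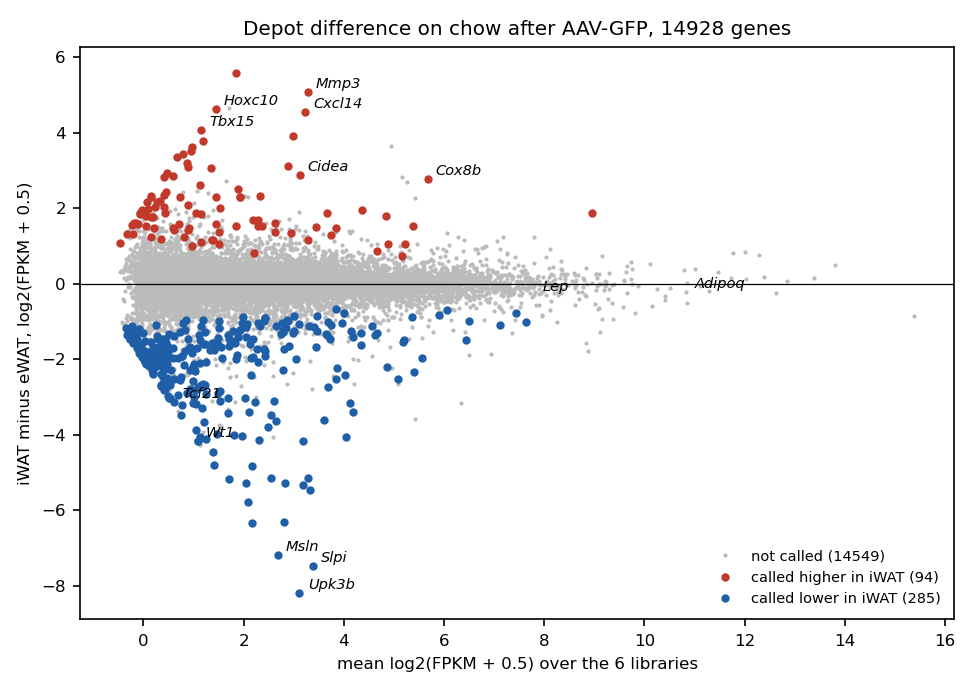
Difference between the depots (iWAT minus eWAT, log2 scale) against the mean level over the 6 libraries, 1 point per tested gene. Genes called higher in iWAT (94, red) and lower in iWAT (285, blue) are coloured. Upk3b, Slpi and Msln lie lowest, Mmp3 and Hoxc10 are among the highest, and the adipocyte hormones Adipoq and Lep lie near 0.

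The largest differences were markers of mesothelium, all lower in iWAT. Of 20 mesothelial genes, all tested, 17 were called lower and 0 higher, and their median difference was -4.66 log2 units against 0.02 over all genes. With a depot listed at 0 set to a level of 3 reads, the median log2 ratio of mean levels was -6.66. The summed level of the list was 31.1 to 40.2 FPKM in the iWAT libraries and 711 to 924 FPKM in the eWAT libraries, and 4 of its genes were listed at 0 in all iWAT libraries. The count was 17 without iWAT library 3, 17 without eWAT library 1 and 18 without both. This list was drawn up with results of these libraries known, so that its direction is not independent evidence.

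Upk3b, a uroplakin of the mesothelial surface (chromosome 5, positions 136038496 to 136046487), was at 0, 0 and 0.0176 FPKM in iWAT and at 120, 137 and 197 FPKM in eWAT. Its difference of -8.20 ± 0.20 log2 units was the largest of all called genes (limma adjusted p = 1.13e-05). Msln, which encodes the surface protein mesothelin, was at 0.104, 0 and 0 FPKM in iWAT and at 63.8, 89.7 and 78.9 in eWAT (-7.18 ± 0.17, adjusted p = 1.13e-05). For both genes the reads in iWAT were at or near none in every library, and the depots lay far apart. Slpi, a secreted inhibitor of leukocyte proteases, was at 0.186, 0.752 and 0.0527 FPKM in iWAT and at 108, 231 and 106 in eWAT (-7.48 ± 0.41, adjusted p = 0.000403). Upk1b, another uroplakin, was listed at 0 in all iWAT libraries and stood at 35.8, 38.1 and 47.1 FPKM in eWAT. The keratins of simple epithelia were low in iWAT too. Krt19 was at 1.539, 1.499 and 0.201 FPKM in iWAT and at 68.2, 58.0 and 47.1 in eWAT (-5.34 ± 0.42, adjusted p = 0.00157). Krt8 (-5.17 ± 0.31), Krt18 (-4.12 ± 0.22) and Krt7 (-3.22 ± 0.21) were called in the same direction.

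The list held other classes of protein as well. Ezr, which encodes ezrin, a linker of membrane and actin in microvilli, was at 2.50, 3.60 and 2.95 FPKM in iWAT and at 45.3, 40.7 and 40.7 in eWAT (-3.61 ± 0.15, adjusted p = 0.000179). Bnc1, a zinc-finger transcription factor, was listed at 0 in iWAT and stood at 6.23, 9.11 and 11.0 FPKM in eWAT. Lrrn4, a membrane protein with leucine-rich repeats, was at 0.620, 0.350 and 0.485 FPKM in iWAT and at 22.9, 43.1 and 41.3 in eWAT (-5.16 ± 0.27, adjusted p = 0.00037). All of these genes were called whichever library was left out. The 3 members not called were Cldn15 (-0.47), Flrt3 (0.14) and Ildr2 (-2.15), and the last was called without both libraries that stood apart (adjusted p = 0.0263).

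**Figure D2:**
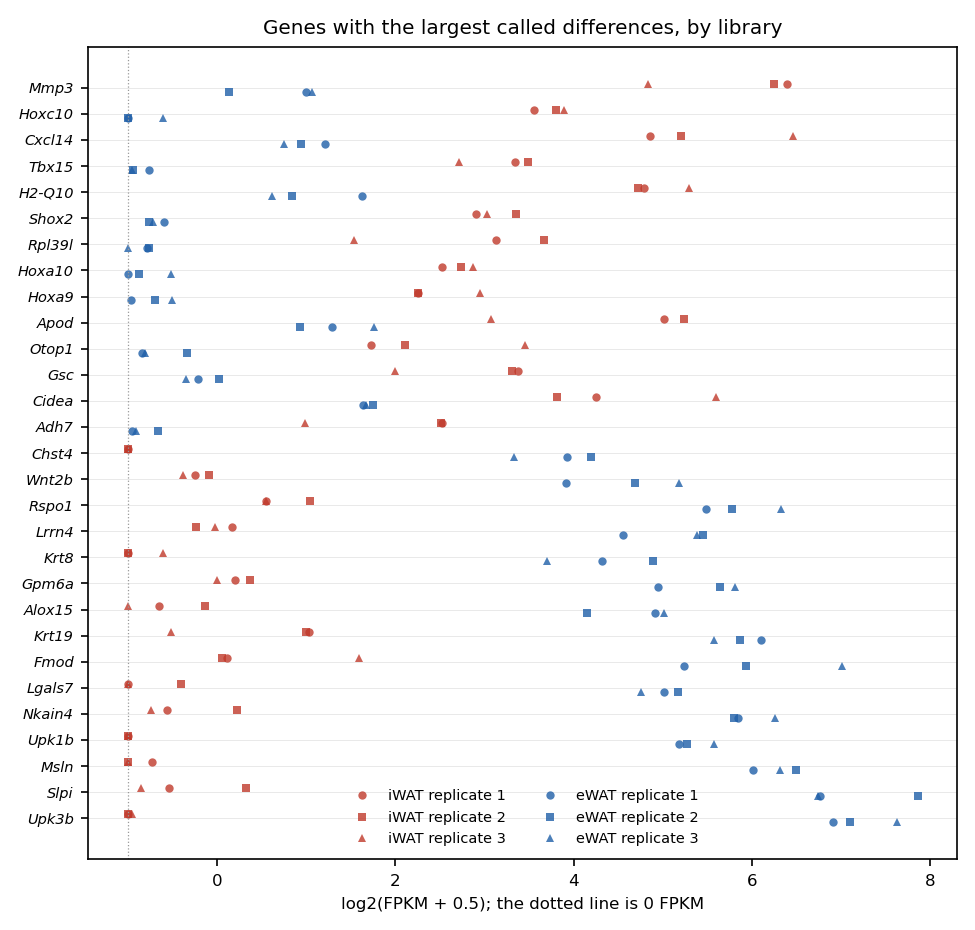
Level in each library, as log2(FPKM + 0.5), of 29 of the 30 genes with the largest called differences, 15 in each direction; symbols mark the replicate and colours the depot. In every gene the 3 iWAT points (red) lie apart from the 3 eWAT points (blue), and in Upk1b and Chst4 all iWAT points lie on the line for 0 FPKM.

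Beside these markers, 5 of the 15 largest differences toward eWAT were genes outside the mesothelial list. Wnt2b, a secreted Wnt ligand, was at 0.340, 0.436 and 0.266 FPKM in iWAT and at 14.6, 25.2 and 35.7 in eWAT (-4.84 ± 0.32). Fmod, which encodes the collagen-binding proteoglycan fibromodulin, was at 0.581, 0.537 and 2.52 FPKM in iWAT and at 37.2, 60.4 and 128 in eWAT (-5.47 ± 0.56). The eWAT libraries differed among themselves in both genes, but none came near iWAT. Alox15, a lipoxygenase of eosinophils and peritoneal macrophages, was at 0.134, 0.410 and 0 FPKM in iWAT and at 29.6, 17.2 and 31.7 in eWAT (-5.29 ± 0.31). Lgals7, a galectin of epithelia, was at 0, 0.255 and 0 FPKM in iWAT and at 31.7, 35.4 and 26.4 in eWAT (-5.78 ± 0.22). Chst4, a sulfotransferase, was listed at 0 in iWAT and stood at 14.7, 17.7 and 9.54 FPKM in eWAT. Adjusted p-values of these genes lay between 0.000132 and 0.00493, and each was called in all 6 leave-one-out fits.

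Promoter sequences are shown for 2 mesothelial genes, Upk3b and Lrrn4, and for Lhx8, a gene listed at 0 in eWAT that is described below. These genes were close to off in 1 depot, and each held a match to a motif given below. Other genes close to off in 1 depot, such as Hoxa10 and Shox2, held no match and are not shown. Each sequence shown is the 250 bases before the transcription start, 5′ to 3′ along the gene, from RefSeq (GRCm38.p6). Capitals mark matches on either strand to GATAA, letters bound by GATA factors, and to GGAATG, letters bound by TEAD factors, where a match on the other strand reads CATTCC.
Upk3b, chr5:136038246-136038495, plus strand: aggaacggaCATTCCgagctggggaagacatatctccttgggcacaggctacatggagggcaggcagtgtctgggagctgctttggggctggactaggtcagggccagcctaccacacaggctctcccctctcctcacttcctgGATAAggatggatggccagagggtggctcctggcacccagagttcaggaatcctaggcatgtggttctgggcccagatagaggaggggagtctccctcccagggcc
Lrrn4, chr2:132880863-132881112, minus strand: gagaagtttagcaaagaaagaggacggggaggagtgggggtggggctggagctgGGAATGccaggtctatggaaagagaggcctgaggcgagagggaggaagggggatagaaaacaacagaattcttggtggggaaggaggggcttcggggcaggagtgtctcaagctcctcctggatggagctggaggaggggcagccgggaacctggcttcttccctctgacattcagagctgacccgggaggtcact
Lhx8, chr3:154330561-154330810, minus strand: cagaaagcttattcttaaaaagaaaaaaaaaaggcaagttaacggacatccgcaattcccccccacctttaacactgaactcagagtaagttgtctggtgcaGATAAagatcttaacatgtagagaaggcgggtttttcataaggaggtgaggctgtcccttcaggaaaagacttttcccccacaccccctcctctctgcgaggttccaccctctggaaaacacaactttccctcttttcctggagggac
The Upk3b stretch held 1 match to each motif, the Lrrn4 stretch 1 to GGAATG, and the Lhx8 stretch 1 to GATAA. Over windows from 250 bases before to 50 after the start, on both strands and with overlaps allowed, GATAA was in 17.3% of 52 promoters of genes higher in iWAT, in 20.7% of 193 promoters of lower genes and in 16.1% of all 10154 tested genes with a promoter in the table. GGAATG was in 17.3%, 17.6% and 12.04% of the same sets. A motif bound by SOX factors, ACAAAG, was searched as well and was in 17.3%, 10.9% and 13.3% of these sets. Each motif was thus present in a minority of promoters in each set. Of 9 promoters of leading genes looked at, 4 held a match in the 250 bases before the start, those shown and Hoxa9, and 5 held none to any of the motifs: Gpm6a, Hoxa10, Shox2, Cxcl14 and Mmp3. A match describes letters only, and the genes and motifs were picked after the expression values were seen.

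Genes higher in iWAT included position-dependent transcription factors, nerve sheath genes and genes of beige fat. Hox genes encode homeodomain transcription factors that are switched on in the order of their place in 4 clusters along the body axis. Of 39 Hox genes 25 were tested, 4 were called higher in iWAT and 0 lower, and the median difference was 0.08. The 4 were Hoxa9, Hoxa10, Hoxc9 and Hoxc10. The count was also 4 without iWAT library 3 and without eWAT library 1, but of other members. Hoxc9 was called in neither of these fits (limma adjusted p = 0.057 and 0.0976). Without iWAT library 3, Hoxa5 was called instead, lower in iWAT (adjusted p = 0.0471). Without both libraries the count was 5 (3 higher, 2 lower). Hoxc10 (chromosome 15, positions 102966796 to 102971893) was at 11.3, 13.4 and 14.4 FPKM in iWAT and at 0, 0 and 0.157 in eWAT (4.62 ± 0.19, adjusted p = 0.000179). Hoxa10 was at 5.24, 6.17 and 6.79 FPKM in iWAT and at 0, 0.0441 and 0.201 in eWAT (3.50 ± 0.20, adjusted p = 0.000457). Hoxa9 was at 4.27, 4.26 and 7.21 FPKM in iWAT and at 0.0118, 0.116 and 0.204 in eWAT (3.21 ± 0.26, adjusted p = 0.00167). These 3 genes were near none in eWAT and clearly read in iWAT. Hoxc9 was read in both depots, at 10.5, 9.01 and 9.00 FPKM in iWAT and at 3.01, 2.49 and 4.92 in eWAT (1.38 ± 0.24, adjusted p = 0.0355). Its call was lost in every leave-one-out fit other than the one without eWAT library 3 (adjusted p up to 0.15).

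The other Hox genes were not called. Hoxc8, the Hox gene with the highest level, was at 38.1, 37.4 and 35.0 FPKM in iWAT and at 50.4, 62.5 and 64.1 in eWAT (-0.66 ± 0.13, adjusted p = 0.0602), and Hoxc4 was at 4.45 ± 0.609 and 9.31 ± 2.59 FPKM (SD, n = 3). Hoxa5 was at 5.18, 3.56 and 9.77 FPKM in iWAT and at 18.2, 14.2 and 9.88 in eWAT (-1.20 ± 0.37, adjusted p = 0.213). Its iWAT library 3 almost reached the lowest eWAT library, and without iWAT library 3 the gene was called (adjusted p = 0.0471). All 8 tested genes of the HoxB cluster overlapped between the depots, and Hoxd8 and Hoxd9 were at 8.05 and 2.46 FPKM in iWAT and at 9.38 and 2.80 in eWAT. Hoxc11, below the filter, was at 0.244, 0.585 and 0.185 FPKM in iWAT and listed at 0 in eWAT. The gene model of Hoxc5 spans Hoxc9 and Hoxc10 on the same strand and that of Hoxa3 overlaps Hoxa5, so that their reads may be split between them. Hoxc5 itself was at 5.36 FPKM in iWAT and at 7.18 in eWAT.

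**Figure D3:**
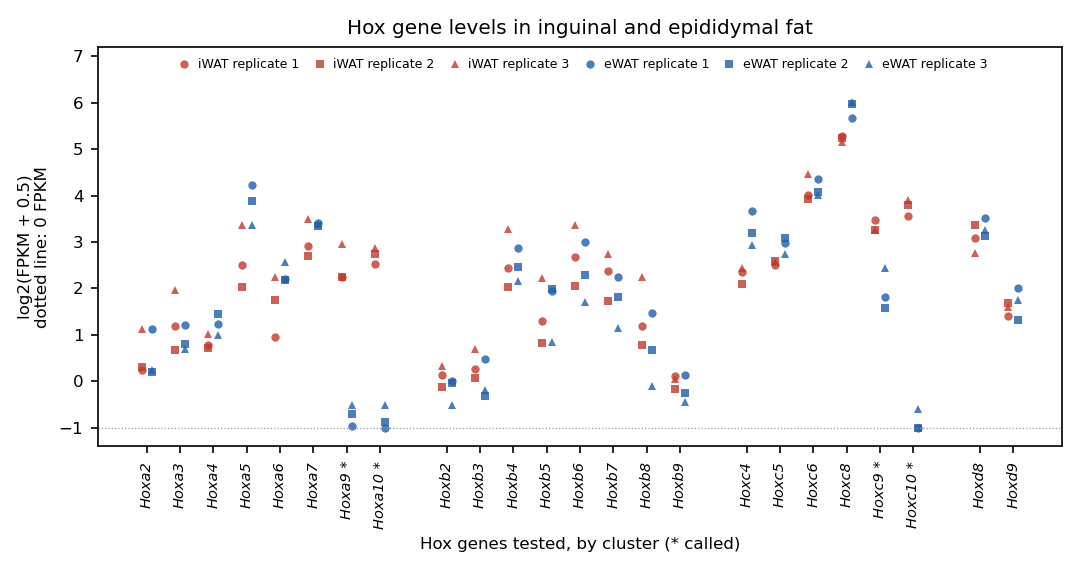
Level in each library, as log2(FPKM + 0.5), of 24 of the 25 tested Hox genes by cluster, with iWAT in red and eWAT in blue. The called genes (asterisk) Hoxa9, Hoxa10 and Hoxc10 lie near the line for 0 FPKM in eWAT, while Hoxa2 to Hoxa7 and Hoxc4 to Hoxc8, at the other end of these clusters, were not called.

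Other transcription factors of development moved in both directions. Of 66 listed, 41 were tested, 11 were called higher in iWAT and 9 lower, with a median of 0.58 (0.67 with depots at 0 set to 3 reads). The count of 20 became 22 without iWAT library 3, 14 without eWAT library 1 and 22 without both. Higher in iWAT were Tbx15 (4.07 ± 0.24, adjusted p = 0.000457) and Shox2, a homeobox gene of the limb, at 6.98, 9.72 and 7.68 FPKM against 0.159, 0.0871 and 0.108 in eWAT (3.79 ± 0.18, adjusted p = 0.0003). En1, a homeobox gene of body wall and limb ectoderm, was at 2.99, 3.67 and 1.66 FPKM in iWAT and at 0.0754, 0.0825 and 0.114 in eWAT (2.42 ± 0.28). Lhx8, a LIM homeobox gene also listed among brown fat markers, was at 2.56, 3.57 and 3.02 FPKM in iWAT and listed at 0 in eWAT. The Iroquois genes Irx1, Irx2 and Irx5 were at 2.27, 1.89 and 1.10 FPKM in iWAT and at 0.0703, 0.0815 and 0.0345 in eWAT. Twist1, a bHLH factor of mesenchyme, was higher at a high level in both depots, with 46.1, 43.1 and 37.6 FPKM in iWAT and at 19.3, 21.2 and 19.4 in eWAT (1.06 ± 0.12). Tbx5 (1.31) and Twist2, at 2.29 FPKM in iWAT and at 0.893 in eWAT, were also called. Gsc, a homeobox gene outside the list, was at 9.87, 9.42 and 3.48 FPKM in iWAT and at 0.364, 0.512 and 0.283 in eWAT (3.07 ± 0.38).

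Lower in iWAT were Wt1 and Bnc1, given above, and 7 further factors of the list. Tcf21, a bHLH factor of visceral mesoderm, was at 0.0467, 0 and 0 FPKM in iWAT and at 4.61, 3.71 and 3.72 in eWAT (-3.12 ± 0.18, adjusted p = 0.000457). Isl1, a LIM homeobox gene, was at 0, 0.0149 and 0 FPKM in iWAT and at 3.45, 3.04 and 4.40 in eWAT (-3.02 ± 0.20). Gata5 was listed at 0 in iWAT and stood at 3.18, 2.55 and 2.59 FPKM in eWAT. Its relative Gata6 was read in both depots, at 2.68, 1.99 and 2.58 FPKM in iWAT and at 10.4, 7.19 and 10.2 in eWAT (-1.73 ± 0.20, adjusted p = 0.00681). The noncoding gene 1010001N08Rik on the opposite strand of Gata6 was lower too (-1.72). The 2 gene models overlap only from position 11052508 to 11052567 of chromosome 18. Reads in that short stretch cannot be told apart, since no source used here gives the strand setting of the counts. Osr1 (-2.20), Eya2 (-1.90) and Meis1 (-0.96) were the remaining calls.

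Among these factors Tbx5, Twist2 and Meis1 lost the call in all 6 leave-one-out fits (adjusted p up to 0.13, 0.20 and 0.16). Osr1, Eya2 and Irx1 lost it in 5 of 6 (up to 0.14, 0.16 and 0.14), Irx1 also in voom on the recovered reads (0.0671). Irx5 lost it without iWAT library 1 or 2 (up to 0.068), Twist1 (0.052) without iWAT library 1, and Gsc without eWAT library 3 (0.060). By the transcription factor families that the deposited table gives, 16 of 68 homeobox genes were called (23.5%; 12 higher, 4 lower), and 35 of 915 transcription factors of all families (3.83%).

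Some genes of nerve sheath were higher in iWAT. Of 20 nerve and Schwann cell genes 12 were tested, 4 were called higher and 0 lower, and the median was 1.01. The count was 5 without iWAT library 3, 3 without eWAT library 1 and 4 without both. Cdh19, a cadherin of Schwann cells, was at 2.58, 2.31 and 2.64 FPKM in iWAT and at 0.0154, 0.0674 and 0.182 in eWAT (2.36 ± 0.19). Prx (1.42 ± 0.25), a gene of myelin, was called as well. It lost the call in every leave-one-out fit other than that without iWAT library 3 (adjusted p up to 0.14). Pmp22, a myelin gene that fat cells and fibroblasts also express, was at 77.6 and 76.9 FPKM, and Sox10, the defining factor of Schwann cells, was at 1.47 and 0.0275 FPKM (1.78 ± 0.37, adjusted p = 0.0696).

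Some genes of beige and brown fat were higher in iWAT. Of 31 such genes 19 were tested, 6 were called higher and 1 lower, with a median of 0.61 (0.77 with depots at 0 set to 3 reads). Cidea, a lipid droplet protein of thermogenic fat cells, was at 18.6, 13.5 and 47.8 FPKM in iWAT and at 2.61, 2.85 and 2.67 in eWAT (2.87 ± 0.43, adjusted p = 0.021). Cox8b, a subunit of cytochrome oxidase, was at 134, 78.9 and 218 FPKM in iWAT and at 16.9, 32.3 and 12.6 in eWAT (2.77 ± 0.45, adjusted p = 0.0304). Otop1, a proton channel induced in beige fat, was at 2.81, 3.81 and 10.5 FPKM in iWAT and at 0.0575, 0.293 and 0.0695 in eWAT (3.09 ± 0.45, adjusted p = 0.0193). In each of these genes iWAT library 3 was highest, and the depots did not overlap. Prdm16 (1.48 ± 0.25) and Ppargc1a (1.20 ± 0.22), transcriptional regulators of heat production, and Lhx8 were also called. Ckmt1, a mitochondrial creatine kinase, was lower in iWAT (-1.65 ± 0.20). Ucp1, the uncoupling protein that defines the thermogenic cell, was below the filter, at 0, 0.108 and 0 FPKM in iWAT and listed at 0 in eWAT. The count of 7 was 7 without iWAT library 3, 2 without eWAT library 1 and 6 without both. Without eWAT library 1 the adjusted p was 0.0731 for Cidea, 0.0944 for Cox8b, 0.0711 for Otop1, 0.0841 for Prdm16 and 0.0999 for Ppargc1a. Over all leave-one-out fits Cidea, Otop1 and Prdm16 lost the call in 4, Cox8b in 3 and Ckmt1 in 2 (adjusted p up to 0.098, 0.093, 0.14, 0.12 and 0.059). In voom on the recovered reads Cidea (0.0704) and Otop1 (0.0562) were not called.

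Most lists of fat cell metabolism held no call. Of 32 genes of fat cell identity and lipid storage, all tested, 1 was called, Cidea, and 0 were called without eWAT library 1 or by voom. None was called among 22 genes of lipid synthesis, 17 of lipolysis, 24 of fatty acid oxidation and 50 nuclear genes of oxidative phosphorylation by limma or by voom. Of these lists 14, 14, 22 and 46 genes lay above 0, where the median over all genes tested was 0.02. At an unadjusted p under 0.05 limma gave 4, 2, 6 and 5 of these genes, where 13.5% of all genes tested (2008) reached it. Without iWAT library 3, and also without both libraries that stood apart, 1 gene of fatty acid oxidation was called. The oxidative phosphorylation list had a median difference of 0.18, which was 0.099 without iWAT library 3, 0.11 without eWAT library 1 and 0.024 without both. The median of the fatty acid oxidation list was 0.25, and 0.043 without both. Among 34 adipokines and secreted factors 1 was called, Fgf1, a growth factor, at 2.22, 5.26 and 3.72 FPKM in iWAT and at 49.4, 66.1 and 93.8 in eWAT (-4.07 ± 0.33, adjusted p = 0.00179). That list had 4 calls without iWAT library 3 and 7 (5 higher, 2 lower) without both libraries that stood apart. Adipoq, which encodes adiponectin, was at 1691 ± 118 FPKM in iWAT and at 1995 ± 326 in eWAT (SD, n = 3; -0.23 ± 0.21, adjusted p = 0.733). Lep, which encodes leptin, was at 197, 337 and 121 FPKM in iWAT and at 166, 356 and 254 in eWAT (-0.30 ± 0.42, adjusted p = 0.856). The depots overlapped in both hormones. Fndc5, the gene of the irisin precursor, was below the filter at 0.735, 0.578 and 0.157 FPKM in iWAT and at 0.454, 0.131 and 0.390 in eWAT. Il33, an alarm cytokine, was at 3.42 ± 2.57 and 9.99 ± 6.35 FPKM, and Il1rl1, its receptor, at 1.67 ± 0.670 and 2.15 ± 0.270, neither called (adjusted p = 0.425 and 0.694).

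**Figure D4:**
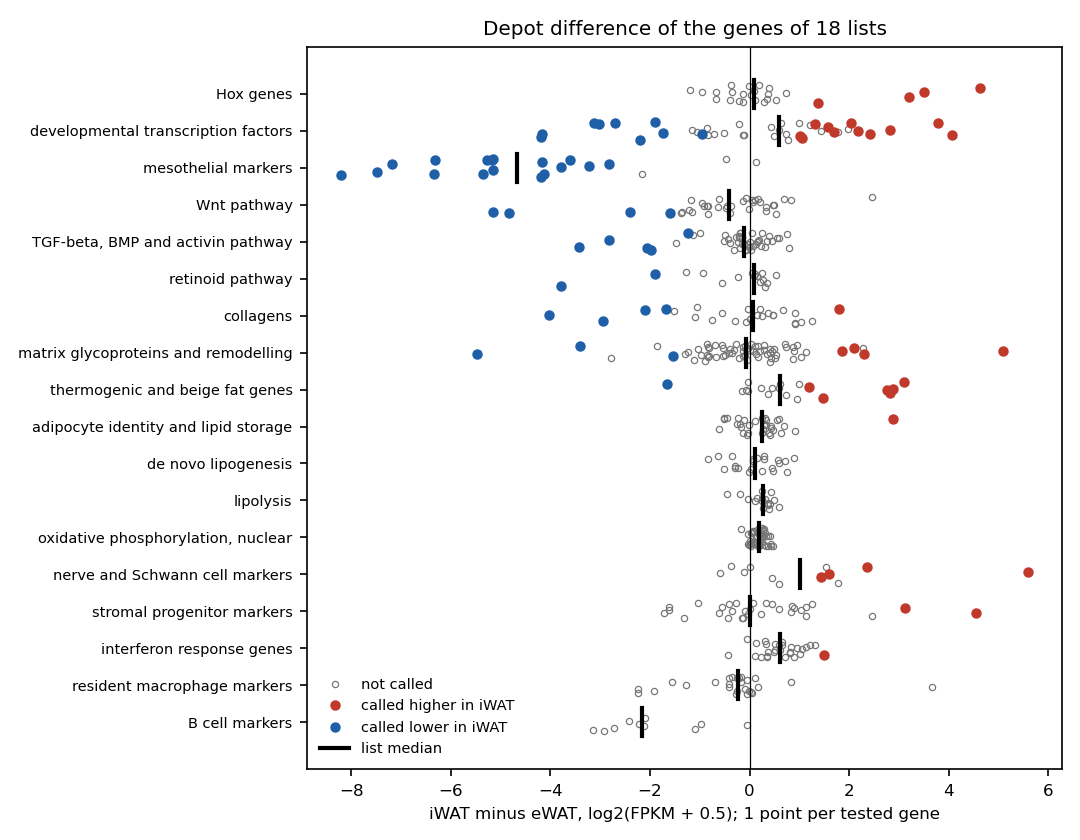
Difference between the depots of each tested gene in 18 gene lists, with called genes filled (red higher, blue lower in iWAT) and the list median as a bar. The mesothelial list lies far below 0 with 17 of 20 genes called, the nerve list has its median at 1.01, and the lists of lipid synthesis, lipolysis and oxidative phosphorylation hold no called gene.

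Extracellular matrix genes were called in both directions. Of 26 collagens tested, Col6a3, a chain of the pericellular collagen VI, was called higher, at 61.0, 71.7 and 33.7 FPKM in iWAT and at 15.8, 16.0 and 13.1 in eWAT (1.79 ± 0.28). Col6a5 (-4.04 ± 0.48), Col4a6 (-2.95 ± 0.23), Col8a2 (-2.11 ± 0.36) and Col6a6 (-1.68 ± 0.31) were lower. The count of 5 became 8 without iWAT library 3, 3 without eWAT library 1 and 8 (5 higher, 3 lower) without both, so that its balance turned. Among 69 matrix glycoproteins and remodelling genes 4 were higher, led by Mmp3, a matrix metalloproteinase of fibroblasts, at 83.3, 75.1 and 28.1 FPKM in iWAT and at 1.502, 0.601 and 1.594 in eWAT (5.09 ± 0.46, adjusted p = 0.00283). Mmp27 (2.10), Comp (1.86) and Fbln7 (2.30) were the others. Fmod, Fbln1 (-3.40) and Fbln2 (-1.54) were lower. The matrix count of 7 became 12 without iWAT library 3, 2 without eWAT library 1 and 13 (7 higher, 6 lower) without both. Col6a3, Col8a2, Mmp27, Comp, Fbln1 and Fbln2 each lost the call in 4 or 5 leave-one-out fits, and Col6a6 in all 6 (adjusted p up to 0.18 over these genes). Mmp3 and Col4a6 kept it in all 6. Mmp27 was not called in voom either (adjusted p = 0.0791).

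Of 31 stromal progenitor markers 2 were called, both higher in iWAT. Of the whole list 16 genes lay above 0 and 15 below. The median was 0.004, and 0.43 without both libraries that stood apart. Cxcl14, a chemokine of fibroblasts, was at 28.4, 36.2 and 87.7 FPKM in iWAT and at 1.81, 1.42 and 1.18 in eWAT (4.54 ± 0.41, adjusted p = 0.00283). Apod, a lipid-binding lipocalin, was at 31.9, 37.0 and 7.91 FPKM in iWAT and at 1.95, 1.40 and 2.88 in eWAT (3.12 ± 0.57, adjusted p = 0.0448). In the second gene iWAT library 3 was lowest. The summed level of this list was 446 FPKM in that library, 1119 and 1032 in the other iWAT libraries and 502 to 538 in eWAT. The count rose to 9 without iWAT library 3 and was 12 (11 higher, 1 lower) without both libraries that stood apart. Apod lost the call in 5 leave-one-out fits (adjusted p up to 0.16) and in voom (0.104).

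Of the 15 largest differences toward iWAT, 4 stood in no list: Gsc, given above, H2-Q10, given below, Rpl39l and Adh7. Rpl39l, a ribosomal protein gene, was at 8.26, 12.2 and 2.39 FPKM in iWAT and at 0.0794, 0.0868 and 0 in eWAT (3.63 ± 0.52, adjusted p = 0.018). Adh7, an alcohol dehydrogenase that also oxidizes retinol, was at 5.25, 5.22 and 1.48 FPKM in iWAT and at 0.0174, 0.133 and 0.0316 in eWAT (2.85 ± 0.43, adjusted p = 0.0223). In both genes iWAT library 3 was lowest, and the depots did not overlap. Rpl39l lost the call in 4 leave-one-out fits and Adh7 in 5 (adjusted p up to 0.089 and 0.10). Neither was called in voom (adjusted p = 0.0721 and 0.0600).

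Signalling genes of the Wnt and TGF-beta lists that were called were lower in iWAT. Of 36 Wnt pathway genes tested, 4 were lower and 0 higher, with a median of -0.42. Without both libraries that stood apart calls came in both directions, 10 in the Wnt list (3 higher, 7 lower) and 8 in the TGF-beta list (3 higher, 5 lower). Beside the ligand Wnt2b these were Rspo1, a secreted amplifier of Wnt signals that also stands in the mesothelial list, at 0.963, 1.56 and 0.962 FPKM in iWAT and at 44.1, 54.1 and 79.5 in eWAT (-5.15 ± 0.25, adjusted p = 0.000307). Dkk3 (-2.41 ± 0.27) and the intracellular inhibitor Nkd1 (-1.59 ± 0.29) were lower as well. Axin2, a general target of the pathway, was at 4.74 and 12.5 FPKM (-1.21, adjusted p = 0.223). The Wnt count was 6 without iWAT library 3. Of 47 genes of the TGF-beta, BMP and activin pathway 5 were lower and 0 higher. Among them were the ligands Bmp4 (-2.07 ± 0.27) and Tgfb3 (-1.24 ± 0.16), the BMP antagonist Nog (-2.82 ± 0.26), and Ltbp4 (-1.97 ± 0.26), which binds latent TGF-beta. These ligands and the antagonist thus differed in the same direction. Nkd1, Ltbp4, Bmp4 and Tgfb3 lost the call in 2 to 5 leave-one-out fits (adjusted p up to 0.18). Of 16 genes of retinoid metabolism 2 were lower, among them Aldh1a2, which makes retinoic acid, at 1.62, 1.15 and 0.467 FPKM in iWAT and at 19.8, 21.3 and 19.7 in eWAT (-3.79 ± 0.29, adjusted p = 0.00124). That count was 1 without eWAT library 1 and 1 without both libraries.

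Immune cell markers gave few calls. None was called among 26 resident macrophage markers, 14 genes of lipid-associated macrophages, 10 B cell, 11 T and NK cell and 11 MHC class II genes by limma or by voom, and an unadjusted p under 0.05 was reached by 3, 1, 7, 2 and 3 of them, against 13.5% of all genes tested. All 10 B cell markers lay below 0, with a median of -2.17, which was -1.26 without eWAT library 1. All 11 MHC class II genes lay below 0 as well (median -0.27), but that median was 0.48 without both libraries that stood apart. The resident macrophage list had a median of -0.23, which turned to 0.58 without iWAT library 3, where 5 genes were called, and 8 (5 higher, 3 lower) were called without both libraries that stood apart. Without both, 1 B cell gene and 1 gene of lipid-associated macrophages were called. Of 29 interferon response genes 27 lay above 0 (median 0.62), and 1 was called: Irf7, a transcription factor of the interferon response, at 16.1, 17.2 and 20.7 FPKM in iWAT and at 6.59, 6.23 and 5.23 in eWAT (1.504 ± 0.153, adjusted p = 0.00464). Of this list 6 were called without iWAT library 3, 2 without eWAT library 1 and 12, all higher in iWAT, without both. H2-Q10, a class I gene of the major histocompatibility complex, was at 27.1, 25.9 and 38.6 FPKM in iWAT and at 2.59, 1.29 and 1.03 in eWAT (3.90 ± 0.30), and reads of this gene family may be shared between near-identical copies. Of 34 complement and acute phase genes 3 were lower in iWAT: Clu (-2.34 ± 0.23), Saa3 (-4.15 ± 0.73) and Lcn2 (-2.30 ± 0.31), the last 2 called in 1 and 3 of the 6 leave-one-out fits. Saa3 was not called in voom (adjusted p = 0.127). The complement count was 5 without iWAT library 3 and 7 (2 higher, 5 lower) without both libraries that stood apart.

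Markers of tissues next to the pads were looked at in each library. The 16 skeletal muscle genes summed to 46.1 to 63.7 FPKM, with Myl1, a myosin light chain, at 33.7 ± 3.37 in iWAT and 18.5 ± 3.39 in eWAT (0.86 ± 0.16, adjusted p = 0.049, lost in 5 leave-one-out fits, up to 0.19). Of the 4 muscle genes tested Myl1 alone lay above 0 and 3 lay below, with a median of -0.35. The 17 epididymis genes summed to at most 0.425 FPKM in any library, and 0 of them passed the filter. Of these genes 12 were listed at 0 in all iWAT libraries and 14 in all eWAT libraries. Of 5 tested keratinocyte and mammary genes 2 were lower in iWAT, Perp (-2.13 ± 0.20) and Krt14, which was listed at 0 in iWAT and stood at 4.88, 14.1 and 1.74 FPKM in eWAT. Krt14 lost the call in 4 leave-one-out fits (adjusted p up to 0.14) and in voom (0.0839). Without iWAT library 3, eWAT library 1 or both, 0 muscle genes and 1 gene of the keratinocyte and mammary list were called.

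Remaining lists gave few calls. Alox15, Chst4 and Cxcl14, given above, were the only calls among 10 mast cell and eosinophil, 5 lymph node stroma and 33 chemokine genes. The mast cell and eosinophil list had 4 calls without iWAT library 3 and 7 (6 higher, 1 lower) without both libraries that stood apart, and its median moved from -0.07 to 1.10 and 1.23. The chemokine list had 3 calls without either library, 6 (5 higher, 1 lower) without both, and 2 by voom. The short-chain fatty acid receptor Ffar2 was higher in iWAT, at 64.2, 54.7 and 101 FPKM against 20.3, 31.4 and 22.2 (1.53 ± 0.27, adjusted p = 0.0376), and the zinc receptor Gpr39 was lower (-1.34 ± 0.20), of 31 receptor genes, of which 4 were called without iWAT library 3 and 4 (3 higher, 1 lower) without both libraries that stood apart. Cyp2s1, a cytochrome P450, was lower at 0.156, 0.323 and 0.189 FPKM against 6.71, 7.10 and 5.87 (-3.29 ± 0.18), the only call among 19 P450 genes (2, both lower, without both libraries). Cspg4, the pericyte antigen NG2, was the only call of 19 mural cell genes (1.68 ± 0.30), a list with 2 calls without iWAT library 3 or by voom, and 7 (4 higher, 3 lower) without both. Endothelial (35), steroid (20), insulin and IGF (24), imprinted (15), clock (18), cell cycle (23) and carbonic anhydrase (8) genes gave 0 calls each by limma, with 4, 3, 4, 2, 4, 8 and 1 genes at an unadjusted p under 0.05 (13.5% of all genes tested). Voom called 1 steroid gene and none in the other 6 lists. Of the 23 cell cycle genes 21 lay below 0 (median -0.49, and -0.28 without both libraries that stood apart). Without both libraries that stood apart 7 endothelial genes were called (5 higher, 2 lower), and 1 each of the steroid, insulin and IGF, imprinted and clock genes; without iWAT library 3 alone 1 endothelial gene was called. Ffar2, Gpr39 and Cspg4 lost the call in 5, 4 and 6 leave-one-out fits (adjusted p up to 0.16, 0.10 and 0.11).

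Both depots were compared in mice given AAV-irisin on chow, in 3 iWAT and 3 eWAT libraries of which none was used above. There 1616 of 15028 genes were called (10.8%; 765 higher in iWAT, 851 lower). All 3 of those iWAT libraries carried muscle transcripts: the skeletal muscle list summed to 126, 368 and 4901 FPKM, against 42.6 to 65.9 in their eWAT libraries. Of the 379 genes called with AAV-GFP, 360 were tested with AAV-irisin, 349 had the same direction, and 304 were also called. This is 84.4% of the 360 and 18.8% of the 1616. The median absolute difference of the 360 genes was 1.85 log2 units with AAV-GFP and 1.59 with AAV-irisin. Upk3b differed by -8.09 with AAV-irisin, Msln by -6.02, Hoxc10 by 4.57, Tbx15 by 4.72 and Cidea by 1.73, all called. Hoxa5, not called with AAV-GFP, was called there (-1.63, adjusted p = 0.000347). A test of the depot by vector interaction with limma called 0 of 14928 genes, with 813 (5.45%) at an unadjusted p under 0.05 and a lowest adjusted p of 0.558. The same test by voom called 0, with 777 at an unadjusted p under 0.05. A difference of Hoxa5 or any other gene between the vectors was therefore not shown.

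**Figure D5:**
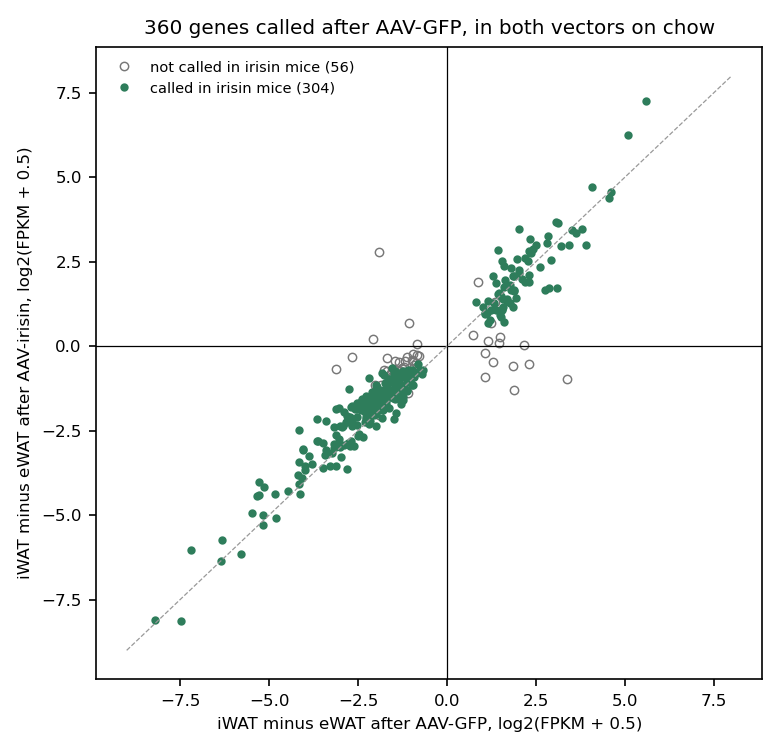
Difference between the depots with AAV-irisin against that with AAV-GFP, both on chow and in log2 units, for the 360 genes called with AAV-GFP and tested in both; the dashed line marks equal differences. The 304 filled genes were called in both comparisons, 11 genes lie on opposite sides of 0, and the GFP values chose the genes.

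With AAV-GFP on high-fat diet the order of the depots was the same for Hoxc10, Tbx15, Upk3b and Wt1. The values are means, given without a test. Hoxc10 was at 9.06 FPKM in iWAT and at 0.0612 in eWAT of mice with AAV-GFP on high-fat diet, and Tbx15 was at 3.83 and 0.0673. Upk3b was at 0.0201 FPKM in iWAT and at 28.0 in eWAT of that diet group, and Wt1 was listed at 0 in iWAT and stood at 2.31 in eWAT.

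Among genes that code for no protein, 39 were called. Gm13111 was at 3.41, 4.26 and 9.39 FPKM in iWAT and at 0.0372, 0.0204 and 0.0169 in eWAT (3.44 ± 0.35, adjusted p = 0.00464), and Gm27202 was at 2.57, 2.66 and 5.22 in iWAT and listed at 0 in eWAT. Lncbate1, a long noncoding RNA named for brown fat, was at 9.73, 8.38 and 13.4 FPKM in iWAT and at 2.36, 4.17 and 2.80 in eWAT (1.61 ± 0.25, adjusted p = 0.0236), and its model overlaps Zfhx3. Gm15883 was higher in iWAT (1.80 ± 0.33), and lies antisense to Cyp2f2, which was at 100.1 FPKM in iWAT and at 17.8 in eWAT, so that its reads cannot be told apart from those of Cyp2f2. Gm36377 (-2.66), 1110002O04Rik (-2.05), G930009F23Rik (-1.97), Gm47416 (-1.80) and 2610016A17Rik (-1.63) were lower. Of the 10 named noncoding genes only Gm13111 and Gm27202 were called in all 6 leave-one-out fits, and the adjusted p of the others rose to at most 0.16.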

How the data were processed

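RNA of the 24 libraries was poly-A selected, per the labels' protocols, and the submitters used HISAT2 2.0.5 and featureCounts 1.5.0-p3, per the submitters' processing notes. The authors deposited FPKM values, which divide each count by gene length and a library scale 0.98 to 1.07 times the reads in genes of the 6 libraries used. The strand setting of the counts and the genome build are not given in the sources used here. Gene identifiers matched GENCODE M21 (GRCm38) in 54409 of 54532 rows, 98.3% at the same position, and positions are given as deposited. Identifiers joined the rows, as 100 symbols repeat, and 8 numeric columns were left unused. Reads were recovered from the FPKM steps (100% of values whole within 0.01), and no library was a copy of another.

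Genes with at least 0.5 FPKM in 3 of the 6 libraries were fitted on log2(FPKM + 0.5) with limma 3.58.1 in R 4.3.3 (lmFit, eBayes with trend), 3 iWAT against 3 eWAT libraries without covariates, with Benjamini-Hochberg adjustment over all 14928 genes. An exact permutation of 3 against 3 libraries cannot give a p under 0.1. The fit was tested on simulated data with known changes. The same fit was made with AAV-irisin on chow, and the interaction over the 4 chow groups. Groups, list members and lists were chosen with earlier results of these data known. Named were the 15 largest called differences in each direction among protein-coding genes with a group mean of at least 1 FPKM and no overlap, all Hox and developmental factors tested, up to 6 called members of each other list (otherwise up to 2 with the smallest p), up to 10 long noncoding genes, and Tbx15, Wt1, Hoxc10, Hoxa5, Adipoq, Lep, Ucp1, Fndc5, Il33 and Il1rl1. A few genes picked by this rule are not reported here. Other genes named were chosen after their values were seen. Alternatives were other pseudocounts (0.1 and 1), filters, scalings, a replicate block, all 8 groups in 1 fit, array weights, robust moderation, a fold minimum, voom on the recovered reads and leaving out libraries. Figures were drawn with matplotlib 3.10.9.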

Additional observations from a re-analysis of the deposited data

How the results depend on the processing

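With AAV-GFP, the count of 379 called genes (94 higher in iWAT, 285 lower) became 244 (50 higher) without a filter on low values, 80 (17 higher, 63 lower) with a fold minimum of 1 log2 unit, 768 (246 higher, 522 lower) with all 8 groups in 1 fit, 1195 (458 higher, 737 lower) with array weights, and 817 (404 higher) without eWAT library 1 and iWAT library 3. Leaving out each library in turn gave 164 to 476 calls, 34 to 193 higher and 130 to 283 lower. With voom on the recovered reads 400 genes were called (75 higher, 325 lower), and 336 of them were among the 379. With AAV-irisin, 1616 calls (765 higher, 851 lower) became 728 (332 higher, 396 lower) with all 8 groups in 1 fit and 785 to 2083 (373 to 1072 higher, 394 to 1011 lower) with 1 library left out. The interaction gave 0 to 1 calls with 1 library left out. The causes were not tested. Of the 96 called genes that the naming rule chose, 86 kept the call with voom, 96 with upper quartile scaling and 87 with a pseudocount of 1. Lep, not called, turned from -0.30 to 0.065 without iWAT library 3 (-0.67 to 0.065 over the leave-one-out fits). With a replicate block 180 genes were called (43 higher, 137 lower), 59 of the 96 kept the call, and with AAV-irisin 567 genes were lower. Deviations of same-numbered libraries correlated at -0.17 to 0.21, and 2 of 6 libraries correlated best with their own number. With 3 libraries per depot this cannot tell if same-numbered libraries shared a mouse. In a gene of 2000 bases 1 FPKM rested on 27.7 to 36.4 reads, which limits the precision of genes near the filter.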

Other observations

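Among the 379 called genes were 12 of snRNA, miRNA or mitochondrial tRNA class, 63 to 108 bases long, and 10 of them were higher in iWAT. In genes this short 1 FPKM rests on far fewer reads than the 27.7 to 36.4 of a gene of 2000 bases. Their levels are thus less precise than the same FPKM in a longer gene. Gm25654, an snRNA gene, was at 4.37, 4.03 and 5.65 FPKM in iWAT and listed at 0 in eWAT of mice with AAV-GFP, but its difference with AAV-irisin was -0.96 (adjusted p = 0.528). Of the 12, 9 were tested with AAV-irisin and 2 had the same direction there, against 349 of 360 for all called genes. This difference in shares was not tested, and the interaction called none of these genes. Other genes of opposite direction included the protein-coding genes Cadm4 and Mybpc2 and the pseudogene Gm11966, chosen here after their values were seen. Mybpc2, a myosin-binding protein of fast muscle, differed by 2.80 with AAV-irisin, where the iWAT libraries held muscle transcripts. Its part in that difference was not tested.

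Transcription factors outside the lists were called as well, and these too were picked after their values were seen. Myrf, a membrane-bound transcription factor, was at 0.0573 ± 0.0121 FPKM in iWAT and at 11.8 ± 1.01 in eWAT (SD, n = 3). Nkx2-9, a homeobox gene, was listed at 0 in iWAT and stood at 1.65 ± 0.548 FPKM in eWAT. Foxo6, a forkhead factor, was at 0.253 ± 0.0771 and 2.13 ± 0.0974 FPKM. Ebf3, a factor of the COE family, was higher in iWAT, at 5.63 ± 0.216 against 1.65 ± 0.499 FPKM.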
